A study of Mus musculus with 12 samples.

Results

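The genes described here encode the proteins of the cytosolic ribosome. They were taken from the quadriceps muscle expression tables as the coding genes whose symbol starts with Rpl or Rps followed by a digit, together with Rplp0, Rplp1, Rplp2 and Rpsa, without the S6 kinase genes (Rps6k) and without symbols marked as pseudogenes (-ps). The rule found 85 of the 15344 genes measured in every library, 51 named for the large (60S) subunit and 34 for the small (40S) subunit. The tables hold RNA-seq of 12 quadriceps libraries in 3 groups of 4, all from C57BL/6 mice at 6 months of age. The group WT was wild-type and untreated. The group KO carried the acid alpha-glucosidase (GAA) knock-out, a model of Pompe disease, and received PBS. The group AAV carried the same knock-out and received AAV2/8-LSPhGAApA at 2 months of age through the tail vein, at a labelled dose of 2e12 vg/kg. This vector expresses human GAA from a liver-specific promoter (LSP), a design in which the liver makes the enzyme and releases it to the blood for uptake by muscle. The libraries of a group are separate samples by their labels.

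A ribosome is built from ribosomal RNAs and a large set of proteins. The proteins of the 40S subunit frame the path of the mRNA and its decoding, those of the 60S subunit surround the site of peptide bond formation and the tunnel through which the new chain leaves, and the P stalk proteins recruit the elongation factors. Most of these mRNAs begin with a run of pyrimidines, the 5′ terminal oligopyrimidine (TOP) tract, through which mTOR signalling controls their translation as a group. Vertebrate genomes hold many processed pseudogenes of these short, highly expressed genes. In striated muscle Rpl3l, a paralogue of Rpl3, is expressed in mature fibres in place of Rpl3.

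Total recovered reads were 22122233 to 47379737 per library. Values below are the deposited counts divided by each library's size factor, called normalized counts, and are given in the order of replicates 1 to 4. The labels were checked on the targeted gene. Gaa had normalized counts of 343, 14640, 324 and 460 in the libraries labelled WT, of 12151, 13075, 11936 and 12895 in those labelled KO, and of 947, 587, 500 and 9854 in those labelled AAV. Gaa was thus highest in the libraries labelled KO and in 1 library of each other group (WT 2 and AAV 4), which goes against the labels if the disrupted gene gives less RNA. The values also differed within a labelled genotype, whatever RNA the disrupted gene gives. KO and AAV carry the same knock-out by their labels, yet AAV 1, 2 and 3 had 500 to 947. Within WT, libraries 1, 3 and 4 had 324 to 460. The reason was not tested. Which part of the transcript these reads cover is not known here, and RNA counts do not measure the enzyme. The groups are therefore named by their labels throughout, and the directions below hold for libraries so labelled. Defining muscle genes (Acta1, Ckm, Mb and Des) were high in every library, with summed normalized counts of 1669493 to 3127635. Markers of other cells moved between the groups. All 7 slow-fibre markers fell in the libraries labelled KO, with a summed level of 1112 to 1297 against 3396 to 6630 in WT and 2934 to 24410 in AAV. Of the 6 macrophage markers 5 were in the table, and their sum was 622 to 1131 in KO, 1116 to 3288 in WT and 616 to 2682 in AAV. The single macrophage markers went both ways. In KO against WT 2 fell and 1 rose at an adjusted p under 0.05 (limma), where 15.3% of all genes fell and 12.3% rose. None of them passed in AAV against KO. The sum of the 4 endothelial markers was 3877 to 5004 in KO, 1634 to 4487 in WT and 3167 to 5380 in AAV. Of 5 erythroid markers 3 were in the table, with a sum of 35.9 to 387 in KO, 327 to 406 in WT and 363 to 1028 in AAV, and 2 of them (Hba-a1 and Hba-a2) rose in AAV against KO. The part of these cells in the results below was not tested, and in such bulk tissue fewer cells of a type and less RNA per cell cannot be told apart.

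The label of the gene family was checked against the annotation (GENCODE M21, GRCm38), which held all 85 identifiers, 83 of them as protein-coding. Rps3a3 and Rps4y2 were the exceptions. The row named Rpl24 carries an identifier that this annotation gives to Zbtb11, so its values are not read as those of a ribosomal protein. Rps19bp1 meets the name rule but encodes a protein that binds Rps19, and Rpl7l1 encodes an assembly factor related to Rpl7.

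Since only reads with a single place in the genome were counted, copies elsewhere in the genome can bear on the level of the members that have them. Of the 85 members, 79 had at least 1 other annotated gene that matched their coding sequence, 1067 such copies in all, and 73 of the copies had rows in the same tables. Each coding sequence was cut into windows of 50 bases, and the median member shared 90.1% of its windows, base for base, with another place in the annotated transcripts. The median normalized count over all 12 libraries was 3387 for the 17 members with under 50% of windows shared, 456 for the 68 with 50% or more, and 45.7 for the 28 with every window shared. Across the 85 genes Spearman's rho between the shared percentage and the level per kilobase was -0.65, a description over genes that share libraries and counting and are not independent replicates. The levels are of uniquely placed reads, and the part of the shared sequence in them was not tested.

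**Figure D1:**
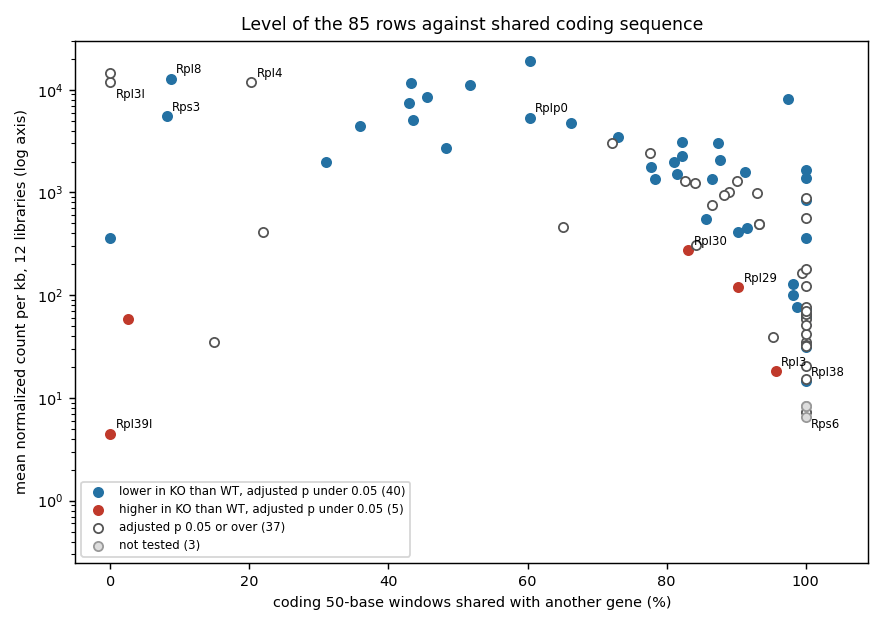
Percentage of 50-base coding windows that each member shares with another annotated transcript (x) against its mean normalized count per kilobase over 12 libraries (y, log axis), coloured by the result of KO against WT. Members with every window shared have a median normalized count of 45.7 (not per kilobase), and Rpl4, Rpl8 and Rpl3l stand at the top left with little or no shared sequence.

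The members with the highest mean normalized counts, which are not scaled by length, included Rpl4, Rpl3l, Rpl8 and Rps3, at 18140, 16344, 10933 and 10554. The highest 5 held 38.4% and the highest 10 held 60.6% of the summed normalized counts of the family. By contrast, 26 members had a mean under 100. Levels between genes were compared per kilobase of transcript. On that scale Rplp1 (19220), Rpl8 (12847), Rpl3l (11886) and Rpl4 (11795) had high mean levels, whereas Rpl3 stood at 18.2 and Rps6 at 7.34.

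To show what these genes share at their starts, the 35 bases around the RefSeq transcription start (20 before it and 15 from it on, GRCm38.p6) are printed for 5 members with, and without, a pyrimidine run. Capitals mark the longest run of C or T bases, where it has at least 5, that touches the 5 bases on either side of the start. The windows are those of Rpl4 (chr9:64173367-64173401, plus strand), Rplp2 (chr7:141447631-141447665, plus strand), Rps27 (chr3:90213634-90213668, minus strand), Rplp0 (chr5:115559447-115559481, plus strand) and Rpl3l (chr17:24727806-24727840, plus strand).
Rpl4: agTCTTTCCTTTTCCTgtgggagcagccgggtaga
Rplp2: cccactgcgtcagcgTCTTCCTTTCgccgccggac
Rps27: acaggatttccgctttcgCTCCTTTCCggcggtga
Rplp0: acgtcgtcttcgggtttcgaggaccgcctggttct
Rpl3l: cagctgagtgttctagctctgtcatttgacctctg
The run is 14 bases long in Rpl4, 10 in Rplp2 and 9 in Rps27, and the longest at the printed starts of Rplp0 and Rpl3l is 4. The run of Rpl4 ends before the annotated start. These starts are annotated and were not measured here, so the runs do not show which mRNAs carry a TOP tract.

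Promoters were found by symbol for 64 of the 85 members, and without Rpl24 and Rps19bp1 these were 74 promoters of 62 genes. A run of at least 8 pyrimidines at the start was held by 32.4% of them, against 9.72% of all 32851 promoters in the RefSeq table, and a run of at least 5 by 50% against 32.9%. The letters CTTTCC at the start, which can lie within such a run, were in 12.2% of the member promoters and 0.865% of all. Searched on both strands of the whole 300 bases, CCGGAAGT, the core of sites for GABP and other ETS factors, was in 16.2% against 3.89%, and AAGATGGC, the core of sites for YY1, in 10.8% against 2.75%. These are matches of letters and not mapped sites. In KO against WT the median log2 fold change was -0.67 for the 23 tested members with a run of at least 8, with 14 lower at an adjusted p under 0.05 (limma), where 15.3% of all genes tested were lower, and -0.60 for the 25 with a run under 5, also with 14 lower. The 11 with a run of 5 to 7 had a median of -0.52, with 3 lower and 1 higher (12.3% of all genes were higher).

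The share of all recovered reads that fell in the 85 genes was 0.585%, 0.742%, 0.429% and 0.665% in the libraries labelled WT, 0.370%, 0.415%, 0.429% and 0.403% in KO, and 0.516%, 0.517%, 0.488% and 0.692% in AAV. The group means were 0.605% ± 0.134 (SD, n = 4) in WT, 0.404% ± 0.025 in KO and 0.553% ± 0.093 in AAV. Every library labelled AAV lay above every library labelled KO, while WT 3 lay within the KO values. The difference between the group means was -0.201 percentage points for KO minus WT and 0.149 for AAV minus KO, given as descriptions of the summed family without a test.

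**Figure D2:**
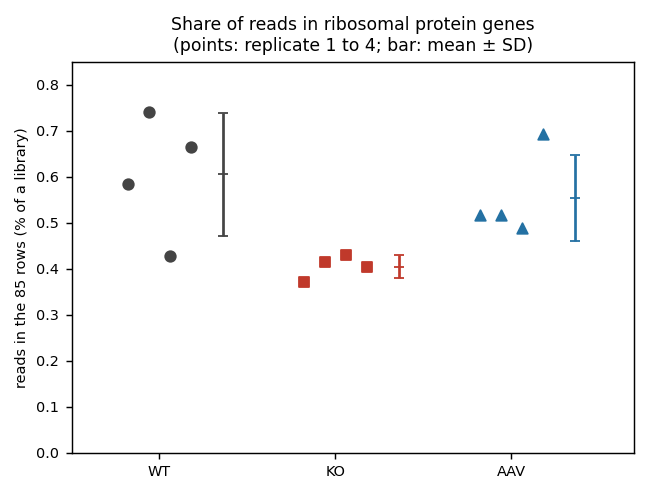
Percentage of all recovered reads that fall in the 85 ribosomal protein genes, 1 point a library, with the mean and SD (n = 4) of each group. The KO points lie between 0.370% and 0.429%, below all AAV points, and the lowest WT point (WT 3) is also at 0.429%.

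The first comparison asks which ribosomal protein mRNAs differ between untreated diseased and wild-type muscle. In the libraries labelled KO most members were lower than in WT. Of 82 members tested, 40 fell and 5 rose at an adjusted p under 0.05 (limma on log2 of the normalized count + 1, Benjamini-Hochberg adjustment over 14859 genes), where 15.3% of all genes tested fell and 12.3% rose. These counts hold Rps19bp1 among the members that fell and the row named Rpl24 among those that rose. The median log2 fold change of the members was -0.57 and that of all genes 0.02. With a change of at least 2-fold as well, 15 members were called, 11 lower and 4 higher, against a background of 8.5% lower and 5.43% higher (13.9% in all). The 4 values of one group did not overlap those of the other in 39 members that were lower and 3 that were higher, where 15.1% and 13.3% of all genes were so separated.

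Transcript length moved with this difference. The median member transcript had 851 bases against 2797 for all genes. Among genes outside the family the median log2 fold change of KO against WT was -0.50 for transcripts of up to 500 bases, -0.39 for 500 to 1000, -0.19 for 1000 to 2000, 0.05 for 2000 to 4000 and 0.23 above 4000, and the members in these classes had medians of -0.87, -0.57, -0.53, -0.49 and 0.25, the last over 2 members. With a correction of each library for gene length, the members' median became -0.11, the number with a positive log2 fold change went from 11 to 33 of 82, 12 fell and 5 rose at an adjusted p under 0.05, and 6 were called (2 lower and 4 higher). Rplp0 and Rpl27 were the lower calls that kept both thresholds under it. Leaving out 1 library gave 8 calls without WT 2, 9 without WT 4 and 22 without WT 3, and 24 to 27 members at an adjusted p under 0.05 without KO 1, KO 2, KO 4, WT 2 or WT 4 in turn.

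**Figure D3:**
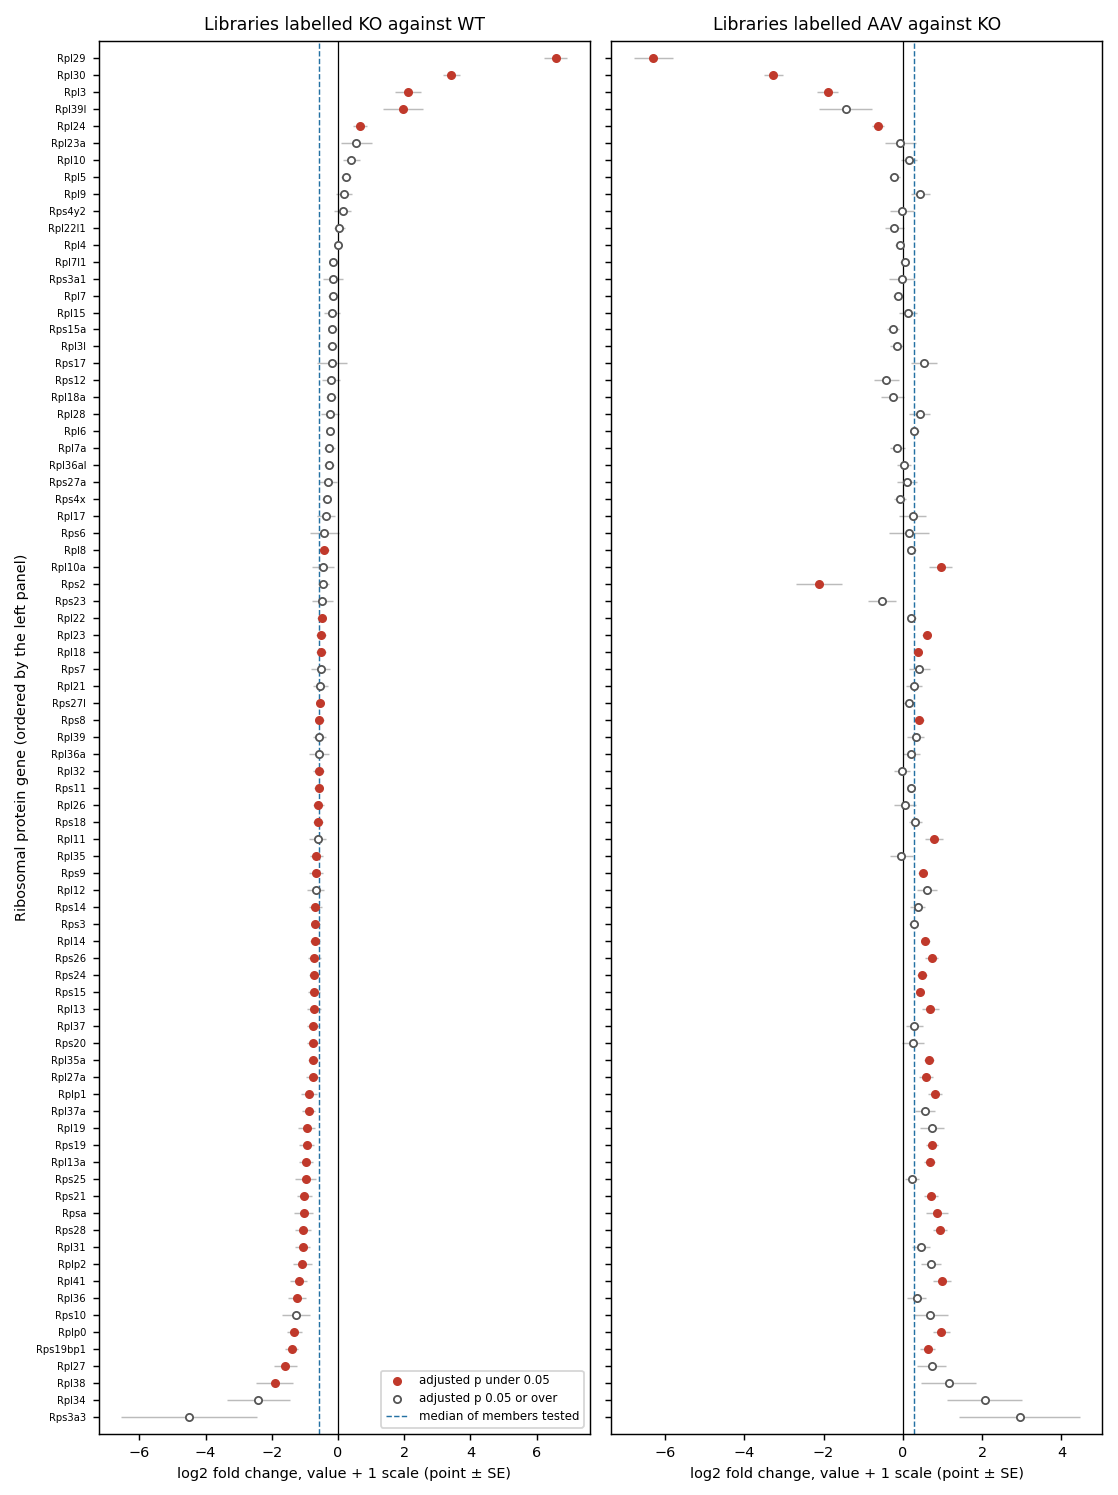
Log2 fold change (log2 of normalized count + 1) with its SE for the tested members (1 is not shown), KO against WT on the left and AAV against KO on the right, sorted within KO against WT. Filled red points have an adjusted p under 0.05, the dashed line is the median of the tested members (-0.57 and 0.29), and Rpl29, Rpl30 and Rpl3 lie far to the right of zero on the left panel and far to the left on the right panel.

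By role, the counts below stand beside the 15.3% of all genes that fell and the 12.3% that rose, and several roles hold few genes. All 3 P stalk members fell. Rplp0, the stalk's base on the 60S subunit, had 9440, 11933, 8645 and 9757 normalized counts in WT, 5393, 5292, 2770 and 3076 in KO and 7408, 8163, 7783 and 7645 in AAV. No KO library reached the lowest value of either other group, and within KO libraries 1 and 2 lay well above 3 and 4. Rplp0 fell by 1.32 on the log2 scale (SE 0.23, adjusted p = 0.0044, limma), and by 1.05 with the length correction (adjusted p = 0.0129). Rplp1, which with Rplp2 forms the acidic arms of the stalk, had 9934, 16963, 7397 and 12550 in WT, 4770, 6521, 6925 and 6538 in KO and 13595, 10119, 8666 and 11112 in AAV. Again all KO libraries were below all others, and Rplp1 fell by 0.87 (SE 0.24, adjusted p = 0.0244). Rplp2 had 5201, 8616, 3811 and 6984 in WT, 1660, 3016, 3475 and 3465 in KO and 3304, 4255, 5121 and 6061 in AAV. Its KO values lay below all WT values but overlapped AAV 1, and it fell by 1.08 (SE 0.29, adjusted p = 0.0241). With the length correction the adjusted p was 0.26 for Rplp1 and 0.0621 for Rplp2, and both also missed the threshold without WT 2, WT 4, KO 1 or KO 2 in turn (adjusted p 0.0517 to 0.0729), Rplp1 without KO 4 as well (0.0513).

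The 12 tested proteins of the 40S head, among them those at the mRNA entry and the decoding site, had a median of -0.70, and 7 fell with none higher (15.3% of all genes fell). Rps28, at the exit of the mRNA path, had 566, 873, 416 and 909 in WT and 325, 298, 346 and 291 in KO. The groups did not overlap, and Rps28 fell by 1.06 (SE 0.24, adjusted p = 0.0114), a call that was lost with the length correction (adjusted p = 0.0838). Rps3, at the mRNA entry and with few shared windows (8.09%), had 13906, 15689, 10646 and 13264 in WT and 8021, 8579, 8124 and 8286 in KO. It fell by 0.68 (SE 0.13, adjusted p = 0.00692) and by 0.52 with the correction (adjusted p = 0.0135), with all KO values below all WT values. Rps10 had a log2 fold change of -1.28 (SE 0.43) with non-overlapping groups and an adjusted p of 0.050006, just outside the threshold, where KO 1 at 182 lay far below the other KO libraries at 630 to 739.

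Of the 18 tested 40S body and platform rows, 9 fell, Rps19bp1 among them, and none rose (15.3% of all genes fell), with a median of -0.58. Rps21, on the solvent side of the subunit, had 3959, 6177, 2721 and 4823 in WT and 2079, 2061, 2253 and 1991 in KO. The KO libraries were close together and below all WT libraries, and Rps21 fell by 1.02 (SE 0.22, adjusted p = 0.00948; 0.0819 with the length correction). Rpsa, a 40S protein also known as the laminin receptor, had 172, 220, 102 and 267 in WT and 77.3, 97.5, 104 and 72.5 in KO. WT 3 lay within the KO values, and Rpsa fell by 1.03 (SE 0.29, adjusted p = 0.0256), which was lost without any library but WT 3 or KO 3 (adjusted p 0.0514 to 0.0715). Rps6, the substrate of the S6 kinases, had only 32, 21 and 23 reads summed over the 4 libraries of WT, KO and AAV. All of its windows are shared, and the part of this sharing was not tested. No difference of Rps6 was detected at this depth (log2 fold change -0.41, SE 0.45, adjusted p = 0.502). The row Rps19bp1, which is not a ribosomal protein, had 472, 534, 305 and 556 in WT and 167, 185, 154 and 184 in KO and fell by 1.4 (SE 0.20, adjusted p = 0.00191).

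Around the polypeptide tunnel exit, 4 of 7 members fell with none higher (15.3% of all genes fell), and the median was -0.60. Rpl31, which lies at the exit, had 86.0, 97.8, 64.1 and 116 in WT and 47.3, 37.6, 37.0 and 46.9 in KO. The groups were separate, and it fell by 1.07 (SE 0.23, adjusted p = 0.00936). Rpl19 also fell (-0.95, adjusted p = 0.0216). The 5S RNP proteins, which carry the 5S rRNA and bind Mdm2 when ribosome assembly is disturbed, did not pass: Rpl5 had a log2 fold change of 0.25 (SE 0.15, adjusted p = 0.23) and Rpl11 of -0.62 (SE 0.25, adjusted p = 0.0842).

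Of the 34 other 60S rows 16 fell and 4 rose, the row named Rpl24 among the latter (15.3% of all genes fell and 12.3% rose), with a median of -0.52. Among those that fell, Rpl41, the shortest ribosomal protein, had 1107, 1968, 696 and 1342 in WT and 528, 533, 551 and 485 in KO, with no overlap. Rpl41 fell by 1.19 (SE 0.26, adjusted p = 0.011), and by 0.60 with the length correction (limma, adjusted p = 0.038). Rpl13a, a 60S protein that also acts outside the ribosome in translational control, had 10706, 14777, 6971 and 12183 in WT and 4775, 5711, 6012 and 5692 in KO, and fell by 0.96 (SE 0.21, adjusted p = 0.0103). Falls past the 2-fold threshold were also called for Rpl27 (-1.59, SE 0.35, adjusted p = 0.0113), Rpl36 (-1.25, SE 0.28, adjusted p = 0.0111) and Rpl38 (-1.92, SE 0.56, adjusted p = 0.0317), which have low counts. With the length correction Rpl36 was at -0.58 and did not pass (limma, adjusted p = 0.152). Rpl38 rests on 44 reads in WT and 10 in KO. Rpl4, which lines the exit tunnel and had the highest mean normalized count without scaling by length, had 17929, 20122, 18637 and 17485 in WT and 20082, 17826, 17195 and 18701 in KO. The ranges of Rpl4 coincided, with a log2 fold change of -0.01 (SE 0.11, adjusted p = 0.964). Rpl8, near the peptidyl transferase centre, had 11453, 15018, 10934 and 13070 in WT and 7881, 9554, 9821 and 10185 in KO, and fell by 0.43 (SE 0.14, adjusted p = 0.0467), which turned to 0.04 with the length correction (adjusted p = 0.817) and was lost without any library but WT 3 (0.0661 to 0.135).

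All 37 members with a mean of at least 1000 normalized counts had a negative log2 fold change, and 26 of them fell. Among members with under 50% of windows shared that encode ribosomal proteins by annotation, 9 of 15 fell and 1 rose, with a median of -0.49. The members with 50% or more shared had a median of -0.57, with 30 of 65 lower and 3 higher.

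Against this direction, Rpl29, Rpl30, Rpl3 and Rpl39l were called higher in KO. Rpl29, a 60S protein, had 1.8, 4.3, 0.8 and 1.0 normalized counts in WT, 218, 252, 280 and 279 in KO and 4.1, 3.0, 0 and 4.6 in AAV. Few uniquely placed reads were counted outside the KO libraries, with 8 in all of WT and 11 in all of AAV against 1094 in KO. Its log2 fold change of KO against WT was 6.58 (SE 0.35, adjusted p = 7.01e-06), and since WT is near the floor the size depends on the pseudocount, with 7.24 at a pseudocount of 0.1 and 4.48 at 10. With its 1 counted copy added, an alternative chosen after seeing the data, Rpl29 had 29.0, 55.3, 17.9 and 31.2 in WT, 222, 264, 290 and 289 in KO and 6.89 to 11.9 in AAV, groups that still did not overlap, and the log2 fold change of KO against WT was 3.06. Rpl30, a 60S protein at the subunit interface, had 53.4, 69.1, 41.4 and 54.6 in WT, 929, 472, 529 and 515 in KO and 57.9, 75.5, 69.7 and 43.1 in AAV. WT and AAV covered the same range and all KO libraries stood far above it, KO 1 the highest, with a log2 fold change of 3.43 (SE 0.24, adjusted p = 5.6e-05). Rpl29 (chr9:106429454-106431568, plus strand) has 66 annotated copies and Rpl30 (chr15:34440505-34443640, minus strand) has 17. Rpl39l, a paralogue of Rpl39, rested on 5, 31 and 9 reads in WT, KO and AAV, and its rise (1.95, SE 0.60, adjusted p = 0.0375) came with overlapping groups and was lost without WT 2, WT 4, KO 1, KO 2 or KO 3 (0.0704 to 0.116). For Rpl39l a pseudocount of 0.1 gave 3.13 (adjusted p = 0.0568) and one of 10 gave 0.61 (adjusted p = 0.0597), so the call was lost with either. The Zbtb11 identifier listed as Rpl24 also rose (0.67, SE 0.22, adjusted p = 0.047).

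Rpl3, which shapes the peptidyl transferase centre, and its muscle paralogue Rpl3l lie at chr15:80077791-80091868 (minus strand) and chr17:24727820-24736143 (plus strand). Rpl3l had 17233, 21641, 17920 and 16213 in WT, 12659, 17388, 17103 and 17669 in KO and 12212, 16057, 17099 and 12930 in AAV. The groups of Rpl3l overlapped, with a log2 fold change of -0.18 (SE 0.15, adjusted p = 0.397) for KO against WT. Rpl3 had 7.2, 13.8, 5.7 and 20.5 in WT, 52.2, 41.9, 43.5 and 59.2 in KO and 12.4, 10.1, 10.6 and 17.4 in AAV. All KO libraries stood above all others, and Rpl3 rose by 2.11 (SE 0.38, adjusted p = 0.00513).

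The ratio of the normalized counts of Rpl3l and Rpl3 was 2381, 1566, 3154 and 792 in WT, 243, 415, 393 and 298 in KO and 985, 1595, 1609 and 742 in AAV. The log2 ratio, taken with 1 added to each normalized count, averaged 10.62 ± 0.79 (SD, n = 4) in WT, 8.34 ± 0.36 in KO and 10.08 ± 0.53 in AAV. It was 2.29 lower in KO than in WT and 1.74 higher in AAV than in KO, and in both pairs the groups did not overlap. The exact two-sided permutation p of 0.029 is the smallest that 4 against 4 libraries can give (0.043 adjusted over the 3 pairs). Between AAV and WT the difference of -0.55 was within the spread (exact permutation p = 0.286). The ratio moves with Rpl3, which had few uniquely placed reads (49, 210 and 47 in WT, KO and AAV). Rpl3 has 21 annotated copies and 95.7% of its windows are shared, while Rpl3l has none, and the part of this sharing in the low Rpl3 counts was not tested.

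**Figure D4:**
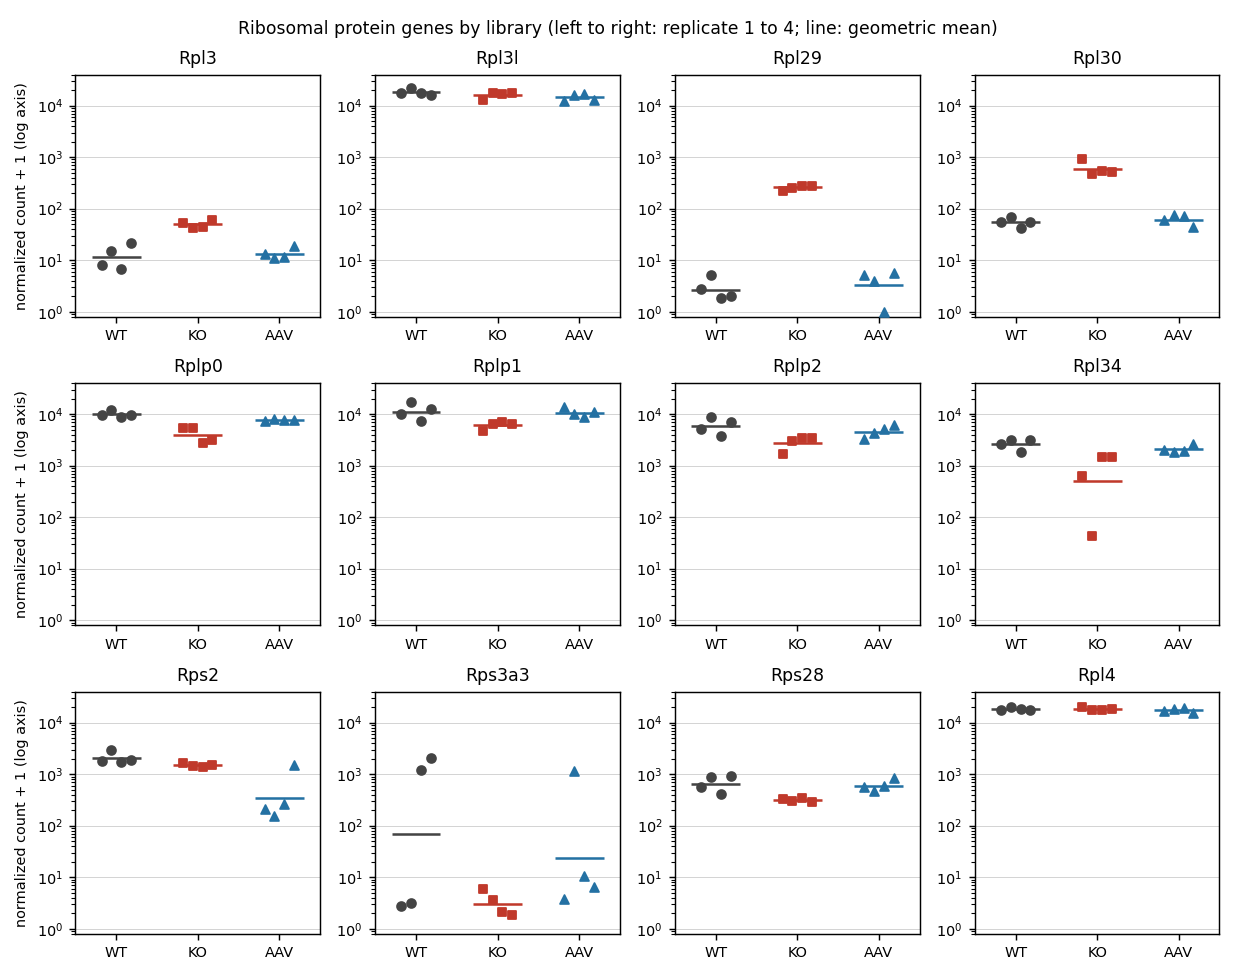
Normalized count + 1 (log axis) of 12 members in each library, replicates 1 to 4 from left to right within WT, KO and AAV, with the geometric mean as a line. Rpl29, Rpl30 and Rpl3 are high in all 4 KO libraries alone, Rplp0 is low in them, Rpl3l and Rpl4 are level, and Rps2 is low in AAV 1, 2 and 3.

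Among the other paralogues, Rps27l fell (-0.55, SE 0.12, adjusted p = 0.011), which turned to 0.07 with the length correction. Rpl22l1 (0.04, adjusted p = 0.861), Rpl36al (-0.26, adjusted p = 0.201) and Rpl7l1 (-0.14, adjusted p = 0.332) did not pass. Of their partners Rpl22 fell (-0.49, adjusted p = 0.0217), which was lost without WT 4 or any 1 KO library (0.0511 to 0.0661), and Rpl36a (-0.57, adjusted p = 0.157), Rpl7 (-0.17, adjusted p = 0.316), Rpl39 (-0.57, adjusted p = 0.0578), Rpl10 (0.40, adjusted p = 0.241) and Rps4x (-0.34, adjusted p = 0.0679) did not pass. With the length correction Rpl10 passed (0.87, limma, adjusted p = 0.0351), while Rpl39 and Rps4x were at 0.00 and 0.06. Rps4x passed with DESeq2 (adjusted p = 0.0324) and with the GC correction (limma, 0.0489). Rpl39 passed with DESeq2 (0.0197), edgeR (0.0456) and the GC correction (limma, 0.0432).

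Some members varied between libraries of 1 group by more than between the groups. Rps3a3, a near copy of Rps3a1, had 1.8, 2.1, 1183 and 2057 in WT, 4.8, 2.6, 1.1 and 0.9 in KO and 2.8, 1134, 9.4 and 5.5 in AAV. It was high in WT 3, WT 4 and AAV 2 alone, and its log2 fold change of -4.50 had an SE of 2.06 (adjusted p = 0.124). Rps3a1 itself had 1327, 1430, 488 and 810 in WT, 903, 765, 865 and 827 in KO and 586, 467, 1141 and 1443 in AAV, so that WT 3 and AAV 2, with high Rps3a3, had the lowest Rps3a1 of their groups. Rpl34 had 2659, 3206, 1821 and 3158 in WT, 633, 41.9, 1500 and 1485 in KO and 2007, 1813, 1896 and 2646 in AAV. KO 2 lay far below the rest, and the log2 fold change of -2.42 (SE 0.95) had an adjusted p of 0.0829.

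The copies in the same tables help in reading these values. Within a short stretch a read can be told from a given copy only by the bases that differ, and other copies are not shown. The following 60-base coding windows (GRCm38) are printed with those bases in capitals. They are Rplp0 in exon 4 (chr5:115561122-115561181, plus strand) beside Gm8730 (chr8:102865398-102865457, minus strand), Rps7 in exon 2 (chr12:28635595-28635654, minus strand) beside Gm6472 (chrX:152910061-152910120, minus strand), and Rpl15 in exon 2 (chr14:18270286-18270345, minus strand) beside Gm8420 (chr1:51941097-51941156, minus strand).
Rplp0: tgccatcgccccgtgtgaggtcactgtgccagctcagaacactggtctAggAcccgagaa
Gm8730: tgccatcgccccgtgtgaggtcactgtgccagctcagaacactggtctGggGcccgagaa
Rps7: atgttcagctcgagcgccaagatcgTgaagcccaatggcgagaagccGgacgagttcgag
Gm6472: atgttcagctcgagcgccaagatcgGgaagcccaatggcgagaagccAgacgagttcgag
Rpl15: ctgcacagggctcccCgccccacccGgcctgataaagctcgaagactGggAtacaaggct
Gm8420: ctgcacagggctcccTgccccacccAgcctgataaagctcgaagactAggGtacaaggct
The first pair differs at 2 of the 60 bases, the second at 2 and the third at 4.

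Gm8730 had 4.5, 8.5, 7.3 and 5.9 in WT, 452, 404, 723 and 747 in KO and 1.4, 5.0, 13.0 and 9.2 in AAV. It rose by 6.25 on the log2 scale in KO (SE 0.27, adjusted p = 3.86e-06) where Rplp0 fell, and the KO libraries with the highest Gm8730, 3 and 4, were those with the lowest Rplp0. With all counted copies added, Rplp0 still had 6188, 6003, 3833 and 4231 in KO against 8836 to 12185 in WT and 7518 to 8343 in AAV. Gm6472 had 67.9, 84.0, 63.3 and 63.4 in WT, 303, 304, 636 and 626 in KO and 71.7, 95.6, 59.1 and 62.4 in AAV, a rise of 2.65 in KO (SE 0.28, adjusted p = 0.000489), while Rps7 itself had 24.8 to 60.6 in all libraries and did not pass (-0.52, adjusted p = 0.185). Gm8420 went the other way, with 201, 176, 187 and 195 in WT, 0, 0, 1.1 and 1.8 in KO and 56.5, 151, 149 and 58.7 in AAV. It fell by 6.94 (SE 0.38, adjusted p = 7.9e-06) and Rpl15 did not pass (-0.17, adjusted p = 0.607). These copies were chosen for print after their values were seen. Of 60 tested copies of members, 4 were called higher and 11 lower in KO, with a median of -0.67, where 5.43% of all genes were called higher and 8.5% lower.

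**Figure D5:**
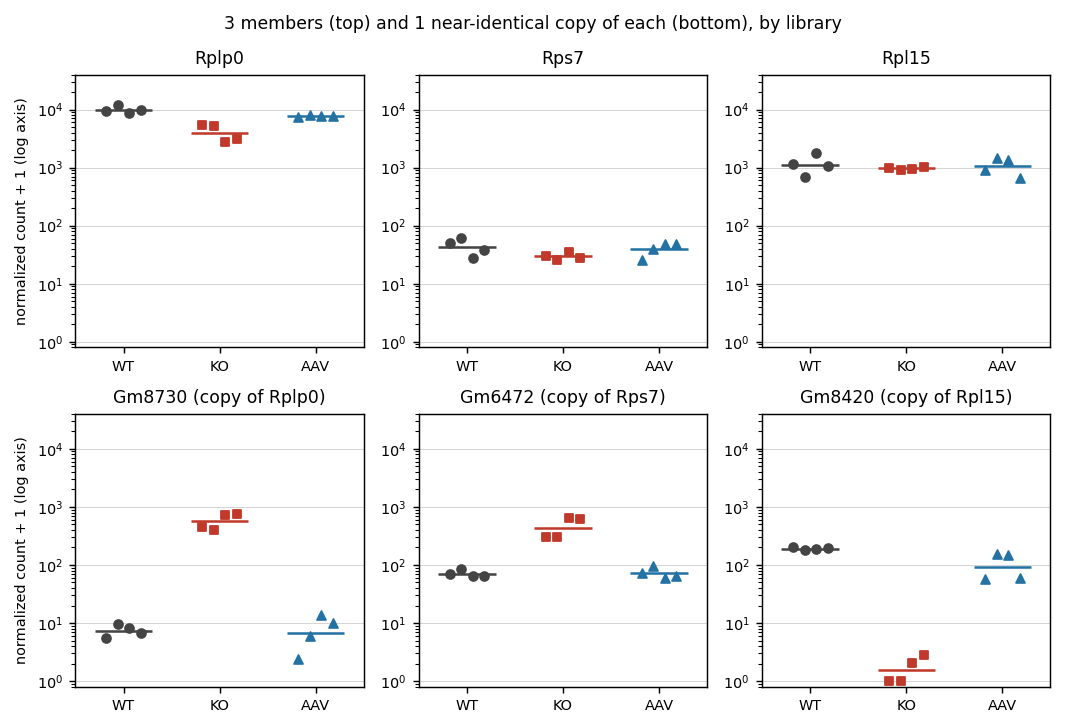
Normalized count + 1 (log axis) in each library for Rplp0, Rps7 and Rpl15 and for 1 annotated copy of each. Gm8730 and Gm6472 are high in all 4 KO libraries and Gm8420 is at 0 to 1.8 there, while Rps7 and Rpl15 overlap between the groups.

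The second comparison asks how these mRNAs differ between treated and PBS-injected knock-out muscle. Here 22 of 83 members rose and 5 fell at an adjusted p under 0.05 (limma, adjustment over 14894 genes), where 12.8% of all genes rose and 13.4% fell. Rps19bp1 is among the 22 and the row named Rpl24 among the 5. The members' median log2 fold change was 0.29 and that of all genes 0.04. With the 2-fold threshold 4 were called, all lower, against a background of 5.43% higher and 3.55% lower (8.98% in all). The direction of the calls depended on the fit. DESeq2 on the recovered reads called 2 higher and 3 lower (1023 and 520 of all 14894 genes), and edgeR 2 and 3 (911 and 507). Without AAV 2 there were 4 higher and 3 lower (765 and 620 of all genes), and with scaling by total reads 5 and 4 (1058 and 353). The groups did not overlap in 26 members that were higher and 4 that were lower, where the shares of all genes were 14.8% and 15.8%. This comparison uses the same KO libraries as the first, so the opposite signs are not independent of each other. With the length correction the median was 0.06, with 6 higher and 5 lower, and with scaling by total reads it was 0.455, where all genes moved to 0.20. With all 12 libraries in 1 fit 11 members rose, with a GC correction 13, and without KO 1, KO 2 or KO 4 in turn 12.

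Among those that rose, Rplp0 was 0.97 higher on the log2 scale (SE 0.21, adjusted p = 0.0129) and Rplp1 0.81 higher (SE 0.17, adjusted p = 0.0101), both with every AAV library above every KO library in the values above. Rplp2 had 0.71 (SE 0.26, adjusted p = 0.0648). In the 40S subunit Rps28 had 557, 470, 583 and 853 in AAV, all above the highest KO value of 346, and rose by 0.93 (SE 0.18, adjusted p = 0.00761). Rps21 had 2737, 2922, 3462 and 4901 in AAV, likewise all above KO, and rose by 0.70 (SE 0.17, adjusted p = 0.017; 0.0501 without KO 4). Rpl41 had 1534, 714, 787 and 1323 in AAV and rose by 0.98 (SE 0.23, adjusted p = 0.0157), and Rpl13a had 9568, 7633, 7829 and 10808 and rose by 0.68 (SE 0.14, adjusted p = 0.00981). Rpl11, of the 5S RNP, had 103, 105, 105 and 188 in AAV and 74.4, 75.3, 76.1 and 57.5 in KO and rose by 0.77 (SE 0.23, adjusted p = 0.0331), with AAV 4 the highest and KO 4 the lowest, a call that was lost without AAV 1 or any 1 KO library (0.0522 to 0.0901). With the length correction the adjusted p was 0.0887 for Rplp1, 0.19 for Rps21, 0.0693 for Rpl41 and 0.108 for Rpl11.

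By role, the counts stand beside the 12.8% of all genes that rose and 13.4% that fell. In the 40S subunit 7 of 18 body and platform rows rose and 1 (Rps2) fell, with a median of 0.39. Of the 13 head members 3 rose and none fell, with a median of 0.31. Of the other 60S rows 9 of 34 rose and 4 fell (the row named Rpl24 among these), with a median of 0.32. None of the 7 tunnel exit members and none of the 6 paralogues passed, with medians of 0.25 and -0.07.

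Rpl29, Rpl30 and Rpl3 fell in AAV against KO, with log2 fold changes of -6.29 (SE 0.49, adjusted p = 9.53e-05), -3.27 (SE 0.25, adjusted p = 8.51e-05) and -1.90 (SE 0.26, adjusted p = 0.00247). The size for Rpl29, at 11 reads in AAV, depends on the pseudocount, with -7.34 at 0.1 and -4.38 at 10. The row named Rpl24 fell by 0.63 (SE 0.14, adjusted p = 0.0135). Rps2, at the mRNA entry of the 40S subunit, had 1788, 2882, 1726 and 1870 in WT, 1615, 1414, 1387 and 1510 in KO and 212, 152, 262 and 1534 in AAV. AAV 4 lay within the KO values and the other AAV libraries far below every other library. Rps2 fell by 2.13 (SE 0.58, adjusted p = 0.0262), and without AAV 4 by 2.85 (adjusted p = 2.5e-05), while without AAV 1, AAV 2 or any 1 KO library it missed the threshold (0.051 to 0.078). With edgeR on the recovered reads the log2 fold change of Rps2 was -1.47 (adjusted p = 0.11). AAV 4 is also the AAV library with the high Gaa count.

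The third comparison sets treated knock-out against untreated wild-type muscle. None of 81 members passed an adjusted p under 0.05 with limma, where 1.29% of all genes did (0.951% higher and 0.341% lower), and with the 2-fold threshold 0.951% did (0.73% higher and 0.221% lower). At an unadjusted p under 0.05 there were 14, all lower, where 18.2% of all genes had such a p. DESeq2 on the recovered reads called 1 member and edgeR 0. The median was -0.24 against -0.03 for all genes, and 65 of 81 log2 fold changes were negative. The groups did not overlap for 6 members, all lower, where the shares of all genes were 4.97% lower and 6.69% higher. The lowest adjusted p was that of Rps2, with a log2 fold change of -2.58 (SE 0.61, adjusted p = 0.0716), and without AAV 4 it was called at -3.30 (adjusted p = 0.00341). Rpl3 (0.22, SE 0.44, adjusted p = 0.821) and Rpl30 (0.16, SE 0.26, adjusted p = 0.768) had ranges that overlapped WT, while Rpl29 was under the filter on low values.

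Genes of the translation machinery outside the name rule were read in the same fits, and their counts stand against the shares of all genes given above (in KO against WT 12.3% rose, 15.3% fell and 8.5% were called lower; in AAV against KO 12.8% rose and 13.4% fell). Of 14 other genes whose mRNAs carry a TOP tract 4 fell in KO and none rose, with a median of -0.28. Among them Eef1a1, the elongation factor that brings tRNA to the ribosome, had 5223, 6474, 1523 and 5349 in WT, 1530, 1373, 1597 and 1224 in KO and 1979, 1869, 1258 and 4158 in AAV. WT 3 lay within the KO values, and Eef1a1 fell by 1.52 (SE 0.39, adjusted p = 0.0189). Tpt1, which encodes the translationally controlled tumour protein, had 753, 1556, 952 and 548 in WT, 50, 53, 73 and 318 in KO and 310, 48, 180 and 51 in AAV. Tpt1 fell by 3.30 in KO (SE 0.55, adjusted p = 0.00386) and was lower in AAV than in WT too (-3.01, SE 0.59, adjusted p = 0.048).

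The 75 mitochondrial ribosomal protein genes included 39 that fell and none that rose in KO against WT, 10 of them called, with a median of -0.41. In AAV against KO 22 rose and 3 fell, with a median of 0.23. These lists were not read under the length correction. Genes of ribosome assembly were mixed, with 2 of 35 higher and 1 lower in KO and a median of 0.08. Of 12 RNA polymerase I genes, which make the rRNA precursor, 2 rose and 1 fell (median 0.13). Rrn3, the factor that recruits the polymerase to rDNA, rose by 0.78 in KO (SE 0.15, adjusted p = 0.00573) and fell by 0.61 in AAV against KO (SE 0.13, adjusted p = 0.0114). Of 12 genes of S6 kinase and TOP control 3 rose and 1 fell in KO (median 0.39). Rps6kb1, the main S6 kinase, rose by 0.79 (SE 0.19, adjusted p = 0.017), Larp1, which binds TOP tracts, rose by 0.51 (SE 0.10, adjusted p = 0.00838), and Eif4ebp1, an mTOR-controlled repressor of initiation, fell by 1.49 (SE 0.32, adjusted p = 0.00924). In AAV against KO 5 of these 12 fell and none rose, among them Mtor itself (-0.81, SE 0.14, adjusted p = 0.00561).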

How the data were processed

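RNA was extracted from quadriceps with a fibrous tissue kit. The authors trimmed reads (Trim Galore 0.4.1, FastQC 0.11.2), aligned them with STAR to GRCm38 keeping reads with a single location, counted genes with HTSeq 0.6.1, kept genes with at least 10 reads in a library and divided counts by DESeq2 1.16.1 size factors. The deposited signal values are these normalized counts. The deposited log2 fold changes, their test scores and p-values of the authors' own comparisons were not used. Both tables were joined on gene identifiers, and whole reads were recovered from the steps of the values (100% within 0.01 of a step). Genes reaching 10 in 1 or more of the 8 libraries of a comparison were tested with limma 3.58.1 (trend) in R 4.3.3 on log2(value + 1), with a call at an adjusted p under 0.05 and a log2 fold change of at least 1. The pseudocount understates changes of low genes. The fits were tested on simulated counts, in which all 200 genes changed by 2 on the log2 scale were recovered. The simulation changed well-counted genes and used a fixed spread, so it does not show how smaller changes or low genes are recovered. edgeR 4.0.16 and DESeq2 1.42.0 on recovered reads were alternatives. Replicates differed beyond sampling noise, but whether each came from a separate animal is only as the labels give it, so p-values measure the spread between these libraries. The genes named in full were the stalk, 5S RNP, Rps6, Rpsa and paralogue members with their partners, the members called (up to 10 a direction), members among the 5 most abundant and up to 3 called genes of each outside list. Rps10, Rpl13a, Rpl19, Rpl34, Rpl38, Rps3a1, Rps3a3, Rps7, Rpl15, the genes of the outside lists that were not called (Rrn3, Rps6kb1, Larp1 and Mtor), and the copies were chosen after their values were seen. Single-gene results of some items are not reported here. The members and lists were chosen with earlier results of these data known. Copies were found with BLAST 2.17.0 at 90% identity over 50% of the coding sequence.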

Additional observations from a re-analysis of the deposited data

Results flagged for a closer look

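Of 114 groups of 4 libraries examined, 10 held a library whose gap to its nearest neighbour passed Dixon's 95% critical value for 4 samples, where chance gives about 1 in 20 groups. Library AAV 4 accounted for 4 of these, with the highest Gaa (9854), Rps2 (1534) and Rpl11 (188) normalized counts and the highest share of reads in ribosomal protein genes (0.692%) of its group. WT 2 accounted for 2, with the highest Gaa (14640) and Rps2 (2882) of the WT libraries. KO 1 accounted for 2, with the highest Rpl30 (929) and the lowest Rpl3l (12659) of the KO libraries. The others were the low Rpl11 of KO 4 (57.5) and the low Rpl27 of WT 3 (46.3). No difference between the effects in 2 settings was examined, since the design holds 1 tissue and 1 age.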

How the results depend on the processing

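In KO against WT, 15 members were called; 9 were with a GC correction and 6 with the gene length correction, where the median was -0.106 33 of 82 members were positive (11 without it), and of the members that had passed, the named Rpl8 and Rps27l turned to 0.0379 and 0.0694. Leaving out 1 library gave 8 to 22 calls (8 without WT 2, 9 without WT 4, 22 without WT 3) and medians of -0.72 to -0.49. In AAV against KO, 4 were called, 7 with copies summed and 9 with scaling by total reads (5 higher), with medians of 0.0575 under the length correction and 0.455 under total reads, and leaving out 1 library gave 3 to 7 calls (7 without AAV 2) and 0.24 to 0.38. In AAV against WT, none was called, 1 with all 12 libraries in 1 fit, with DESeq2 or without WT 2 and AAV 4 together, and leaving out 1 library gave 0 to 1 (1 without AAV 4) and medians of -0.38 to -0.17. The copy sums and the paired omission were chosen after seeing the data. Leaving out 1 library moved the Rpl3l ratio differences to -2.64 to -2.03, 1.59 to 1.95 and -0.90 to -0.29, and the differences in share of reads to -0.26 to -0.155 and 0.103 to 0.171. Same-numbered libraries correlated at -0.355 to 0.554, not above 0.1 in every pair, so the numbers were not read as pairs. With a replicate block 13, 4 and 0 members were called, and the ratio differences of -2.29 and 1.74 had an exact p of 0.125, the smallest 4 pairs allow. Over the named genes, 631 of 711 alternative values in KO against WT, 631 of 709 in AAV against KO and 668 of 701 in AAV against WT kept direction and side of the threshold, and 19, 29 and 28 changed sign, apart from Rpl8 and Rps27l all of members that did not pass. For the others the cause was not tested. Depth limits Rpl29, Rpl39l, Rpl38, Rps6 and Rps27, whose counts fall to a few reads a library.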
